A study of Sus scrofa with 6 samples.

Results

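Immediate early genes, basic leucine zipper (bZIP) genes and nuclear receptor genes were compared between the porcine intestinal epithelial cell lines IPEC-J2 and IPEC-1. The members were chosen by gene symbol alone, with the symbols of JUN, FOS, ATF, EGR, CEBP, MAF, DUSP, IER, CREB, XBP1, NFE2L, NR, PPAR, RAR, RXR, VDR, ESR, GADD45 and DDIT genes. The rule found 60 of the 6765 genes with a value on the array. Further genes of these families are not analysed here. By symbol, the rule also took in 5 genes that belong to none of the families, among them CEBPZOS and IER3IP1. These are described apart below but are included in all counts of members.

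Immediate early genes are switched on within minutes by growth factors, serum or stress, without new protein synthesis, and their messenger RNA decays quickly. Many of them encode bZIP proteins such as JUN and FOS, which pair through a leucine zipper to form AP-1 and bind DNA as dimers, while the DUSP phosphatases switch the upstream MAP kinases off again. Nuclear receptors are transcription factors, many of which are controlled by a bound hormone, lipid or vitamin metabolite, and in the intestinal epithelium they take part in lipid, sterol and retinoid handling. The roles given below are known mainly from human and mouse.

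Both cell lines are spontaneously immortalised lines from the small intestine of piglets, each group rests on 1 line, and no treatment was compared. IPEC-J2 (3 arrays) and IPEC-1 (3 arrays) were grown on membrane inserts in DMEM and Ham's F-12 medium with 5% foetal calf serum, insulin, transferrin, selenium, HEPES and 5 ng/mL epidermal growth factor at 39 °C. Serum and epidermal growth factor, which both induce immediate early genes, were thus present in both groups. The labels give 7 days of culture on the inserts, and the methods give a longer time. From each culture, 500 ng of RNA was hybridised to 1 Affymetrix Porcine Genome Array, and the p-values measure the spread between these cultures only.

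Signals are given on the log2 scale, which was inferred from a floor of exactly 4.00 (the log2 of 16) on every array, and the precision is limited by there being 3 arrays a line. Values at the floor carry no order. A gene's signal is the mean over its probe sets, and since probe sets differ in brightness, levels are compared between cell lines and never between genes. Differences are IPEC-J2 minus IPEC-1, and a gene was called higher or lower where the adjusted p from limma (Benjamini-Hochberg adjustment over 6765 genes) was under 0.05. With 3 arrays a line, the smallest p of an exact permutation test is 0.1. Labels of IPEC-J2 replicate 3 and IPEC-1 replicate 1 share a culture note (note A), and those of IPEC-J2 replicate 1 and IPEC-1 replicate 2 share another (note B). IPEC-J2 replicate 2 and IPEC-1 replicate 3 share no note and are called the remaining pair. A second fit with these pairs as a block (the culture note block) leaves the differences as they are but keeps 2 residual degrees of freedom, where the fit without it has 4, so a call lost there is not by itself a smaller difference. For faint signals, a level was set at 7.78 for IPEC-J2 and 7.85 for IPEC-1, the 95th percentile of above-floor signals on 1 array among probe sets that its sister arrays held at the floor, where folds are antilogs of the differences and folds against this level are given beside the measured ones where they differ.

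Floor values made up 40.5 to 48.3% of the probe sets on the IPEC-J2 arrays and 42.1 to 44.5% on the IPEC-1 arrays, and IPEC-J2 replicate 1 was the dimmest array, with a 75th percentile of 8.31 against 8.51 to 8.56 on the other arrays. Of 9 epithelial markers on the array, only FABP2 was at the floor throughout, CLDN3 and VIL1 were higher and KRT19 was lower in IPEC-J2 (VIL1 with an adjusted p of 0.101 from limma with the culture note block). CLDN3 had only floor values in IPEC-1, and its IPEC-J2 signals of 6.00 to 6.24 lay under the level for faint signals. VIL1 was at the floor on IPEC-1 replicate 2. Of 7 fibroblast and mesenchyme markers 4 were at the floor on all arrays, COL3A1 and DCN included, and the linear signals of the list summed to 2140 to 3850 in IPEC-J2 and 4780 to 10600 in IPEC-1, mostly from vimentin (adjusted p = 0.0989 from limma). PTPRC, which marks leukocytes, and CDH5, which marks endothelium, were at the floor on every array, while CD3E and PECAM1 were lower in IPEC-J2, with IPEC-1 signals of 5.60 to 6.13 and 5.65 to 5.88 that lay under the level for faint signals. PECAM1 had an adjusted p of 0.102 (limma) with the culture note block. Summed linear signals were 64 to 74.6 in IPEC-J2 and 96.5 to 118 in IPEC-1 for the 4 leukocyte markers, and 64 to 77.1 in IPEC-J2 and 98.2 to 107 in IPEC-1 for the 4 endothelial markers. The part of these differences in the results was not tested. In bulk RNA, fewer cells of a type and less RNA per cell cannot be told apart.

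Of the 60 members, 47 were above the floor on at least 1 array and 36 on all 6, by the mean over their probe sets. The 36 include ATF4, DUSP23 and IER5, which each had a probe set at the floor on some arrays only. In IPEC-J2, 3 members were higher (DUSP14, NR1H3 and IER3IP1) and 6 were lower (JUN, CREB3L4, CEBPB, NR2F2, IER3 and CEBPZOS), while 38 were not called. Over all 6765 genes, 9.46% were called higher and 11.2% lower. Among genes above the floor, the shares were 6.38% higher and 12.8% lower for the members, and 11.6% higher and 13.8% lower for all 5513 genes. The members were thus called lower about as often as other genes and higher in a smaller share, which was not tested. Their median difference was -0.01, against -0.05 over all genes above the floor, and the median size of the difference was 0.46 against 0.40. The arrays of the cell lines did not overlap in 19 members, or 40.4%, where the share was 47.5% over all genes above the floor. The genes in by symbol only gave 1 of the higher calls (IER3IP1), 1 of the lower calls (CEBPZOS) and 4 of these 19 members. With the culture note block, 4 members were higher (DUSP14, NR1H3, IER3IP1 and DDIT3) and 0 lower by limma. In that fit 6.6% of all genes above the floor were higher and 6.87% lower. Without the block, 17 of the 47 members had an unadjusted p under 0.05 (limma), against 2215 of all 5513 genes above the floor.

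**Figure D1:**
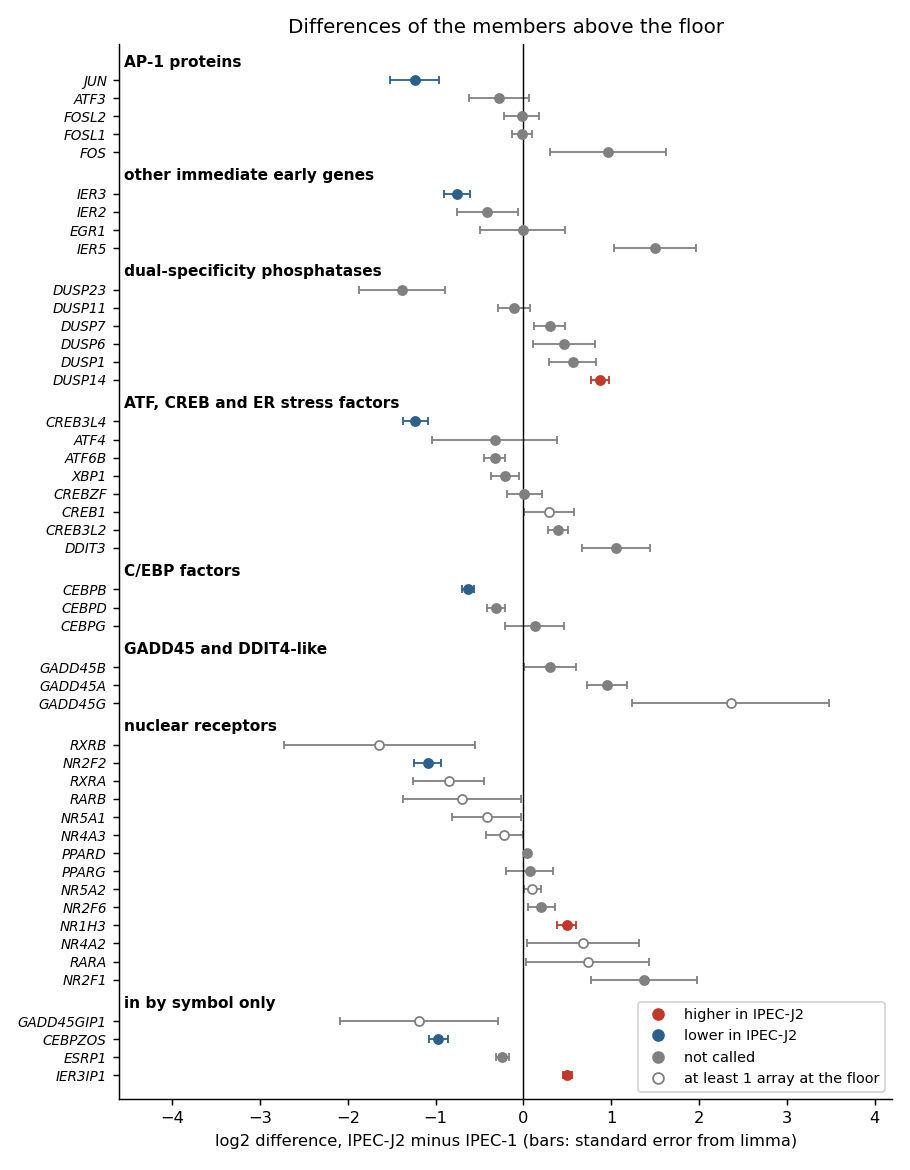
Difference of each member above the floor on at least 1 array, by role, as IPEC-J2 minus IPEC-1 on the log2 scale (x axis). Points are differences of means over 3 arrays per line, and bars are standard errors from limma. Open points mark members whose mean over probe sets was at the floor on at least 1 array. Lower calls stand under 6 of the role headings and higher calls under 3, and the widest bars belong to open points such as GADD45G, RXRB and GADD45GIP1.

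Among the AP-1 proteins, JUN was lower in IPEC-J2 and its usual partner FOS was not called. JUN had log2 signals of 9.64, 10.54 and 9.91 in IPEC-J2, against 11.28, 11.05 and 11.48 in IPEC-1. Every IPEC-J2 array lay below every IPEC-1 array, and IPEC-J2 replicate 2 came closest. JUN averaged 10.03 ± 0.46 in IPEC-J2 and 11.27 ± 0.22 in IPEC-1 (SD, n = 3 each), a difference of -1.24 (SE 0.280), which is 2.36-fold lower (adjusted p = 0.0462 from limma). The difference was -1.37 in note A, -1.41 in note B and -0.94 in the remaining pair. The call was close to the threshold: with the culture note block the adjusted p from limma was 0.0537, and it lay between 0.0935 and 0.152 when any array other than IPEC-J2 replicate 2 was left out.

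FOS had signals of 10.41, 11.72 and 10.42 in IPEC-J2, against 9.50, 9.21 and 10.95 in IPEC-1. The lines overlapped, because IPEC-1 replicate 3 lay above IPEC-J2 replicates 1 and 3. The difference of 0.96 (SE 0.659) was not called, given the spread between arrays (adjusted p = 0.427 from limma). Within each pair, however, FOS was above its IPEC-1 partner, by 0.92 in note A, 1.20 in note B and 0.77 in the remaining pair, and the adjusted p with the culture note block was 0.0579 (limma). JUN was thus below and FOS above in notes A and B, and also in the remaining pair, whose pairing the labels do not give.

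The other AP-1 members were not called. FOSL2, a FOS relative, had signals of 7.14 to 7.71 in IPEC-J2 and 7.28 to 7.70 in IPEC-1 and a difference of -0.02 on the 1 probe set that carries its symbol alone. The annotation gives 4 further probe sets to both FOSL2 and FRZB, a secreted Wnt inhibitor, and these did not enter the gene's mean. Of these, 1 was at the floor throughout, and the others differed by -0.86, -0.88 and -0.82, with adjusted p-values of 0.0071, 0.111 and 0.0267 from limma over probe sets. Which of the genes gave that signal cannot be told apart here, so a lower FOSL2 level in IPEC-J2 is not settled by the array. FOSL1 also differed by -0.02, with 2 of its 3 probe sets at the floor on every array, so that its mean rests on 1 probe set, with a difference of -0.05. ATF3, a stress-induced member that dimerises with JUN proteins, had signals of 9.14, 10.30 and 9.75 in IPEC-J2, against 9.74, 10.21 and 10.09 in IPEC-1. These overlapped, at a difference of -0.28 (adjusted p = 0.691 from limma). Only note B, which holds the dimmest array, was negative, with -1.07, against 0.01 in note A and 0.21 in the remaining pair.

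**Figure D2:**
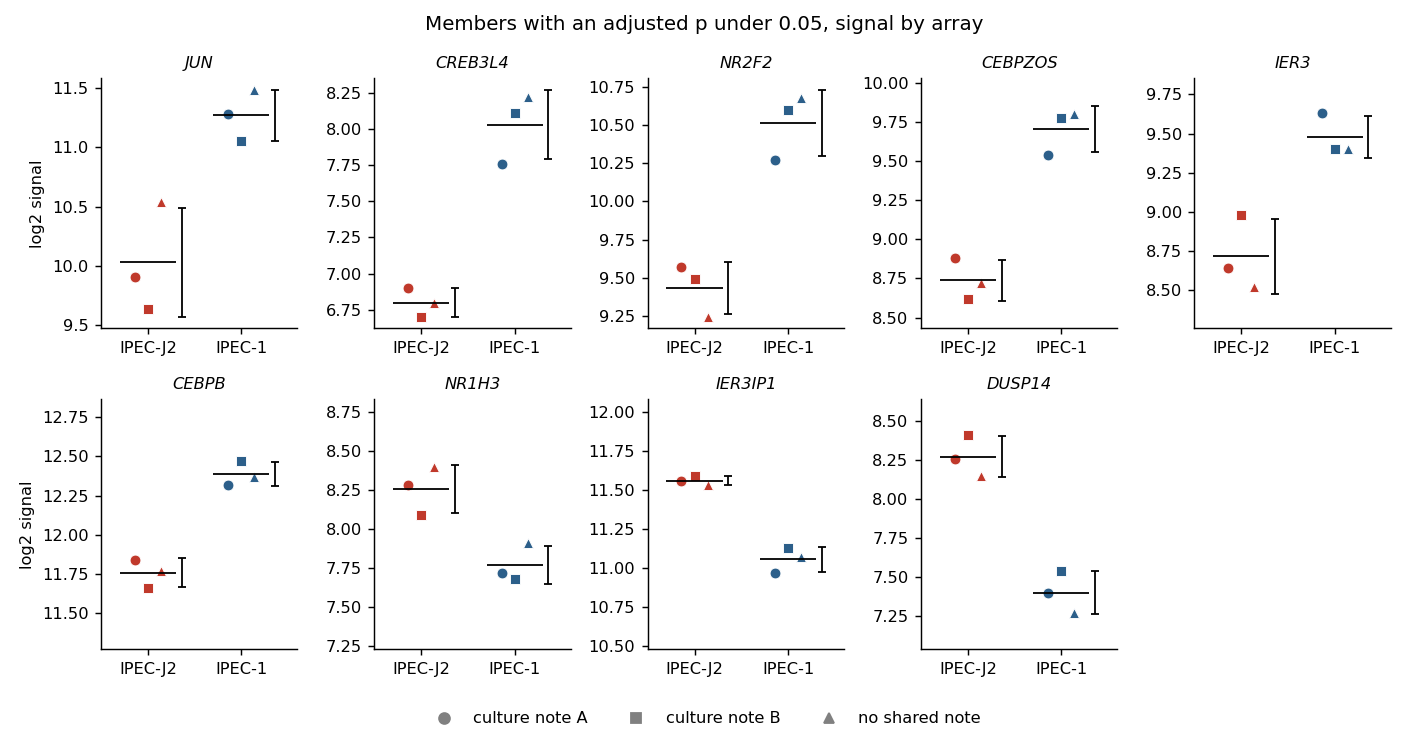
Log2 signal (y axis, separate scale per panel) of the 9 called members by cell line, IPEC-J2 in red and IPEC-1 in blue. Each point is 1 array, its shape gives the culture note, lines are means and bars SDs (n = 3); in every panel the 3 arrays of one line lie above the 3 of the other.

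Of the other immediate early genes, IER3 was lower in IPEC-J2, EGR1, IER2 and IER5 were not called, and EGR4 was at the floor on all arrays. IER3, which protects cells from apoptosis and modulates ERK and NF-kappaB signalling, had signals of 8.98, 8.52 and 8.64 in IPEC-J2, against 9.63, 9.40 and 9.40 in IPEC-1. The lines did not overlap, and IER3 was 1.70-fold lower (difference -0.76, SE 0.150, adjusted p = 0.0319 from limma). The difference was -0.99 in note A, -0.42 in note B and -0.88 in the remaining pair. With the culture note block the adjusted p from limma was 0.110, with quantile normalization 0.0692, and without any array other than IPEC-J2 replicate 1 it lay between 0.0832 and 0.115.

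IER5, which acts in the heat shock response and the cell cycle, had the largest difference among members whose mean signal was above the floor on all arrays. Its signals were 7.42, 8.12 and 7.68 in IPEC-J2, against 5.80, 5.79 and 7.14 in IPEC-1. All IPEC-J2 arrays lay above all IPEC-1 arrays, but IPEC-1 replicate 3 stood apart from the other IPEC-1 arrays, and the difference of 1.50 (SE 0.468) was not called (adjusted p = 0.103 from limma). Without IPEC-1 replicate 3 the adjusted p was 0.0299 (limma) and the difference 1.95. Of its 3 probe sets, 1 was at the floor throughout. The brightest had 10.96, 11.84 and 11.24 in IPEC-J2, against 9.41, 9.37 and 10.53 in IPEC-1, a difference of 1.58. The other probe set had 7.31, 8.53 and 7.80 in IPEC-J2, against 4.00, 4.00 and 6.88 in IPEC-1. Floor values on IPEC-1 replicates 1 and 2 thus enter the gene's difference and the distance of IPEC-1 replicate 3.

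EGR1, a zinc finger factor induced through the ERK pathway, varied between arrays of one line and was not called between the lines. It had signals of 8.81, 9.70 and 9.06 in IPEC-J2, against 9.07, 8.54 and 10.01 in IPEC-1. The difference of -0.01 had a standard error of 0.481, and the highest array in each line belonged to the remaining pair. This order held in each of its 3 probe sets, of which the first had 8.04, 9.81 and 8.93 in IPEC-J2, against 8.97, 7.98 and 10.06 in IPEC-1. IER2, an immediate early nuclear protein, had 9.16, 10.18 and 9.33 in IPEC-J2, against 9.81, 9.75 and 10.33 in IPEC-1. It overlapped between the lines as well (difference -0.41, adjusted p = 0.554 from limma), again with the remaining pair on top.

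The dual-specificity phosphatases were represented by 7 genes, of which 6 were above the floor. DUSP14, a small phosphatase that acts on MAP kinases and dampens T-cell receptor signalling, was higher in IPEC-J2. It had signals of 8.41, 8.15 and 8.26 in IPEC-J2, against 7.40, 7.54 and 7.27 in IPEC-1, with no overlap and little spread. The measured difference was 0.87 (SE 0.103, adjusted p = 0.00896 from limma), or 1.83-fold, and it was nearly the same in note A (0.86), note B (0.87) and the remaining pair (0.88). With IPEC-1 below the level for faint signals, the fold against that level was 1.34. DUSP14 was also called with the culture note block (adjusted p = 0.00801 from limma) and without any 1 array.

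DUSP1, a nuclear phosphatase of p38, JNK and ERK that is itself an immediate early gene, had signals of 10.50, 11.01 and 10.81 in IPEC-J2, against 10.21, 9.81 and 10.62 in IPEC-1. IPEC-1 replicate 3 overlapped the IPEC-J2 arrays, and the difference of 0.56 was not called (adjusted p = 0.242 from limma), although DUSP1 was higher in each pair, by 0.60, 0.69 and 0.39. DUSP6, the cytoplasmic ERK phosphatase, had 9.43, 10.02 and 10.00 in IPEC-J2, against 9.10, 8.99 and 9.97 in IPEC-1. The lines overlapped here too (difference 0.46, adjusted p = 0.483 from limma), with IPEC-1 replicate 3 at the height of the IPEC-J2 arrays. DUSP7, another ERK phosphatase, differed by 0.30 and DUSP11, which acts on RNA, by -0.11, and neither was called.

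DUSP23 had signals of 5.58, 5.69 and 7.15 in IPEC-J2, against 7.47, 7.65 and 7.42 in IPEC-1. The lines did not overlap, but IPEC-J2 replicate 3 stood well above the other IPEC-J2 arrays, since 1 of the 2 probe sets was at the floor on IPEC-J2 replicates 1 and 2 and at 7.09 on replicate 3. The difference of -1.38 was not called with all arrays (adjusted p = 0.136 from limma), and without IPEC-J2 replicate 3 the adjusted p was 0.00581. The probe set above the floor on all arrays differed by -0.38. DUSP9 was at the floor on every array.

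Among the ATF and CREB factors and the factors of endoplasmic reticulum (ER) stress, CREB3L4 was lower in IPEC-J2, and 7 others above the floor were not called. CREB3L4 encodes a membrane-anchored bZIP protein of the ER that is released by cleavage. Its signals were 6.70, 6.80 and 6.90 in IPEC-J2, against 7.76, 8.11 and 8.22 in IPEC-1. The lines were well separated, by -1.23 (SE 0.143, adjusted p = 0.00863 from limma). CREB3L4 was 2.35-fold lower as measured, but with IPEC-J2 below the level for faint signals the fold against that level was 1.19. The call held without any 1 array, and the adjusted p with the culture note block was 0.0670 (limma). Its relative CREB3L2, also cleaved at the Golgi, had 8.92, 9.01 and 8.96 in IPEC-J2, against 8.39, 8.79 and 8.54 in IPEC-1. CREB3L2 thus lay the other way, without overlap, at a difference of 0.39 that was not called (adjusted p = 0.0871 from limma).

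DDIT3, which encodes CHOP, a bZIP protein of ER stress that promotes apoptosis, was called only with the culture note block. It had signals of 7.74, 8.89 and 8.36 in IPEC-J2, against 7.39, 6.83 and 7.63 in IPEC-1. All IPEC-J2 arrays lay above all IPEC-1 arrays, by 0.97 in note A, 0.91 in note B and 1.26 in the remaining pair. The mean difference was 1.05 (SE 0.389), with an adjusted p of 0.151 without the block and 0.0455 with it (limma). That block also pairs the arrays that share no note. With the culture notes as a random block, where those arrays stay unpaired, the adjusted p was 0.0925, and with notes A and B only it was 0.327 (limma). ATF4, which acts upstream of DDIT3 in the integrated stress response, had 7.96, 8.05 and 9.41 in IPEC-J2, against 8.18, 8.25 and 9.97 in IPEC-1. The single high array in each line came from a probe set that was at the floor on all other arrays. The other probe set was bright, with 11.91, 12.11 and 11.78 in IPEC-J2, against 12.36, 12.51 and 12.61 in IPEC-1, a difference of -0.56 without overlap. Its adjusted p from limma was 0.0317 when each gene was represented by its brightest probe set, and 0.0550 when all probe sets were fitted singly.

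XBP1, the bZIP factor activated by IRE1 splicing during ER stress, had 11.89, 12.28 and 11.95 in IPEC-J2, against 12.05, 12.27 and 12.43 in IPEC-1. The ranges overlapped at a difference of -0.21 (adjusted p = 0.471 from limma), and these signals do not separate spliced from unspliced RNA. ATF6B, a membrane-bound ER stress factor, had 9.02 to 9.40 in IPEC-J2 and 9.47 to 9.65 in IPEC-1, a difference of -0.33 that was not called. CREBZF differed by 0.01, with 4 probe sets between -0.12 and 0.13. CREB1, the cyclic AMP response factor, was above the floor on IPEC-J2 replicate 3 alone, and ATF5 and ATF7 on no array.

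Of 3 C/EBP factors above the floor, 1 was lower in IPEC-J2. CEBPB, a bZIP factor of the acute phase and of differentiation, had signals of 11.66, 11.77 and 11.84 in IPEC-J2, against 12.32, 12.47 and 12.37 in IPEC-1. The arrays of each line lay close together, and the gap between the lines was wider than the spread within either. CEBPB was 1.55-fold lower (difference -0.63, SE 0.0653, adjusted p = 0.00654 from limma), which held without any 1 array. With the culture note block the adjusted p from limma was 0.0679, at -0.48 in note A, -0.81 in note B and -0.60 in the remaining pair. CEBPD, induced in inflammation, had 9.28, 9.25 and 9.46 in IPEC-J2, against 9.75, 9.47 and 9.71 in IPEC-1. All 3 IPEC-J2 arrays lay below the IPEC-1 arrays, and its 3 probe sets differed by -0.38, -0.30 and -0.26, but the mean difference of -0.31 was not called (adjusted p = 0.117 from limma). CEBPG, a dimer partner of other C/EBP proteins, differed by 0.13, and both probe sets of CEBPA, a factor of terminal differentiation, were at the floor on every array.

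The GADD45 genes, which encode small stress sensor proteins that bind cell cycle and MAP kinase kinase kinase partners, had no call. GADD45A had 11.52, 12.28 and 11.91 in IPEC-J2, against 11.15, 10.82 and 10.89 in IPEC-1. The lines did not overlap, and the difference of 0.95 (SE 0.230), 1.93-fold, missed the threshold narrowly (adjusted p = 0.0546 from limma, 0.113 with the culture note block). Leaving out the genes at the floor on all arrays gave an adjusted p of 0.0295 and quantile normalization one of 0.0387 (limma). GADD45B had 8.84 to 9.10 in IPEC-J2 and 8.13 to 9.16 in IPEC-1, with overlap and a difference of 0.30. GADD45G had signals of 7.53, 7.54 and 4.00 in IPEC-J2 and only floor values in IPEC-1. Because IPEC-J2 replicate 3 was at the floor as well, it was not called (adjusted p = 0.243 from limma), and its signals stayed below the level for faint signals. DDIT4L was at the floor on all arrays.

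Of 20 nuclear receptor genes, 14 were above the floor on at least 1 array and 6 on all arrays, with 1 called higher and 1 lower. NR2F2 (COUP-TFII), an orphan receptor that shapes mesenchyme, veins and gut development, was lower in IPEC-J2. The mean over its 4 probe sets was 9.49, 9.24 and 9.57 in IPEC-J2, against 10.27, 10.60 and 10.68 in IPEC-1. The lines did not overlap, and NR2F2 was 2.13-fold lower, or 1.97-fold against the level for faint signals (difference -1.09, SE 0.151, adjusted p = 0.0134 from limma). All 4 probe sets lay below in IPEC-J2, by -0.84 to -1.36. The adjusted p from limma was 0.0514 without IPEC-1 replicate 2 and 0.0896 with the culture note block.

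NR2F1 (COUP-TFI), its closest relative, lay the other way without a call. It had 8.18, 9.27 and 9.14 in IPEC-J2, against 7.34, 6.65 and 8.48 in IPEC-1. IPEC-1 replicate 3 lay above IPEC-J2 replicate 1, so the lines overlapped, and the difference of 1.37 (SE 0.604) had an adjusted p of 0.213 (limma), although it was positive in each pair (1.80, 1.53 and 0.79). NR2F6, the third COUP-TF gene, had 10.21 to 10.64 in IPEC-J2 and 10.02 to 10.28 in IPEC-1, a difference of 0.20 that was not called. The COUP-TF genes thus held 1 call, and whether NR2F2 and NR2F1 differ in their shift was not tested.

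NR1H3, the oxysterol receptor LXR alpha, was higher in IPEC-J2. It had 8.09, 8.40 and 8.28 in IPEC-J2, against 7.72, 7.68 and 7.91 in IPEC-1. The lines did not overlap, and the difference was 0.49 (SE 0.109), 1.40-fold or 1.33-fold against the level for faint signals (adjusted p = 0.0455 from limma). It was 0.56 in note A, 0.41 in note B and 0.49 in the remaining pair, and the call held with the culture note block (adjusted p = 0.0387 from limma). It was lost without any array other than IPEC-J2 replicate 1, with adjusted p-values between 0.0665 and 0.148 (limma).

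The PPAR genes did not separate the lines. PPARG, the fatty acid receptor of fat storage that is also expressed in gut epithelium, had 9.50, 9.78 and 9.60 in IPEC-J2, against 9.69, 9.05 and 9.94 in IPEC-1. The difference of 0.07 (SE 0.264) was inside the spread of the IPEC-1 arrays. PPARD, a broadly expressed relative, differed by 0.04, with 2 of 3 probe sets at the floor on every array and 7.40 to 7.74 in IPEC-J2 and 7.45 to 7.50 in IPEC-1 on the other. PPARA was at the floor on every array.

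The retinoid receptor genes were faint. RXRB, a retinoid X receptor and common dimer partner, had 4.00, 7.43 and 7.43 in IPEC-J2, against 7.86, 7.94 and 7.97 in IPEC-1. All IPEC-J2 arrays lay below, but the difference of -1.64 rested largely on the floor value of IPEC-J2 replicate 1, the dimmest array. It was not called with all arrays (adjusted p = 0.410 from limma), and without that array it was -0.49 with an adjusted p of 0.0107. RXRA was at the floor throughout IPEC-J2 and had 5.22, 5.33 and 4.00 in IPEC-1, from 1 of 2 probe sets. RARA was above the floor on IPEC-J2 replicate 2 alone, RARB on IPEC-1 replicate 3 alone, and RXRG on no array. The receptors NR4A2, NR4A3, NR5A1 and NR5A2 were above the floor on 1 to 3 arrays each and were not called.

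The glucocorticoid receptor gene NR3C1 was at the floor on every array with all 4 probe sets, and so were the oestrogen receptor genes ESR1 and ESR2 and the orphan receptor gene NR0B1. A floor value says that the probe set gave no signal above 16 on the linear scale, not that the gene was silent. Of the 60 members, 13 stood at the floor throughout.

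Of the 5 genes taken in by symbol only, CEBPZOS, a small mitochondrial protein encoded opposite CEBPZ, was lower and IER3IP1, an ER and Golgi transport protein, was higher. CEBPZOS had 8.62, 8.72 and 8.88 in IPEC-J2, against 9.54, 9.78 and 9.80 in IPEC-1, a difference of -0.97 (adjusted p = 0.00770 from limma, 0.0713 with the culture note block). Its probe set was not checked for strand, so a signal from the gene on the opposite strand cannot be told apart from its own. IER3IP1 had 11.59, 11.53 and 11.56 in IPEC-J2, against 10.97, 11.13 and 11.07 in IPEC-1, a difference of 0.50 (adjusted p = 0.00518 from limma, 0.0370 with the culture note block). The lines were apart without overlap in both genes. ESRP1, a splicing regulator of epithelial cells, differed by -0.24 and was not called, GADD45GIP1 had 1 IPEC-J2 array at the floor, and the coactivator PPARGC1A was at the floor throughout.

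The members also varied between arrays of one line, and this spread was large for some of the immediate early genes, such as FOS, EGR1 and IER5. The median SD over genes whose mean signal was above the floor on all arrays was 0.245 in IPEC-J2 and 0.210 in IPEC-1 for the members, against 0.160 in each line for all genes. Floor values of single probe sets can still enter these SDs. It was 0.460 in IPEC-J2 and 0.230 in IPEC-1 for the 5 AP-1 genes, and 0.405 in IPEC-J2 and 0.530 in IPEC-1 for the other immediate early genes. In IPEC-1, FOS had an SD of 0.93, while the other AP-1 genes had 0.14 to 0.24 and IER3 had 0.13. In 18 of the 47 members above the floor, or 38.3%, the remaining pair held the highest array of both lines, among them FOS, JUN, EGR1, IER2, IER5, DUSP1, DUSP6 and DDIT3. Over all genes above the floor this share was 19.7%. After arrays were centred on their 75th percentile it was 31.9% of members and 13.4% of all genes. This pattern was noticed in the values and carries no test.

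By size, 6 members (12.8%) exceeded the mean of the other arrays of their line by more than 0.5 in both arrays of the remaining pair, against 4.26% of all genes above the floor. FOS exceeded it by 1.31 in IPEC-J2 and 1.59 in IPEC-1. EGR1 did so by 0.77 in IPEC-J2 and 1.20 in IPEC-1. IER5 did so by 0.57 in IPEC-J2 and 1.34 in IPEC-1, where floor values of single probe sets enter. The remaining pair was thus on top in both lines, also for IER2, by 0.93 in IPEC-J2 and 0.55 in IPEC-1. The other members were NR2F1, by 0.61 in IPEC-J2 and 1.49 in IPEC-1, and DDIT3, by 0.84 in IPEC-J2 and 0.52 in IPEC-1. For the called member CEBPB the same quantity was 0.02 in IPEC-J2 and -0.03 in IPEC-1, and for DUSP14, also called, it was -0.19 in IPEC-J2 and -0.20 in IPEC-1. After centring on the 75th percentile, 4 members and 189 of all genes exceeded 0.5 in both lines. The labels give no shared note for these arrays.

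**Figure D3:**
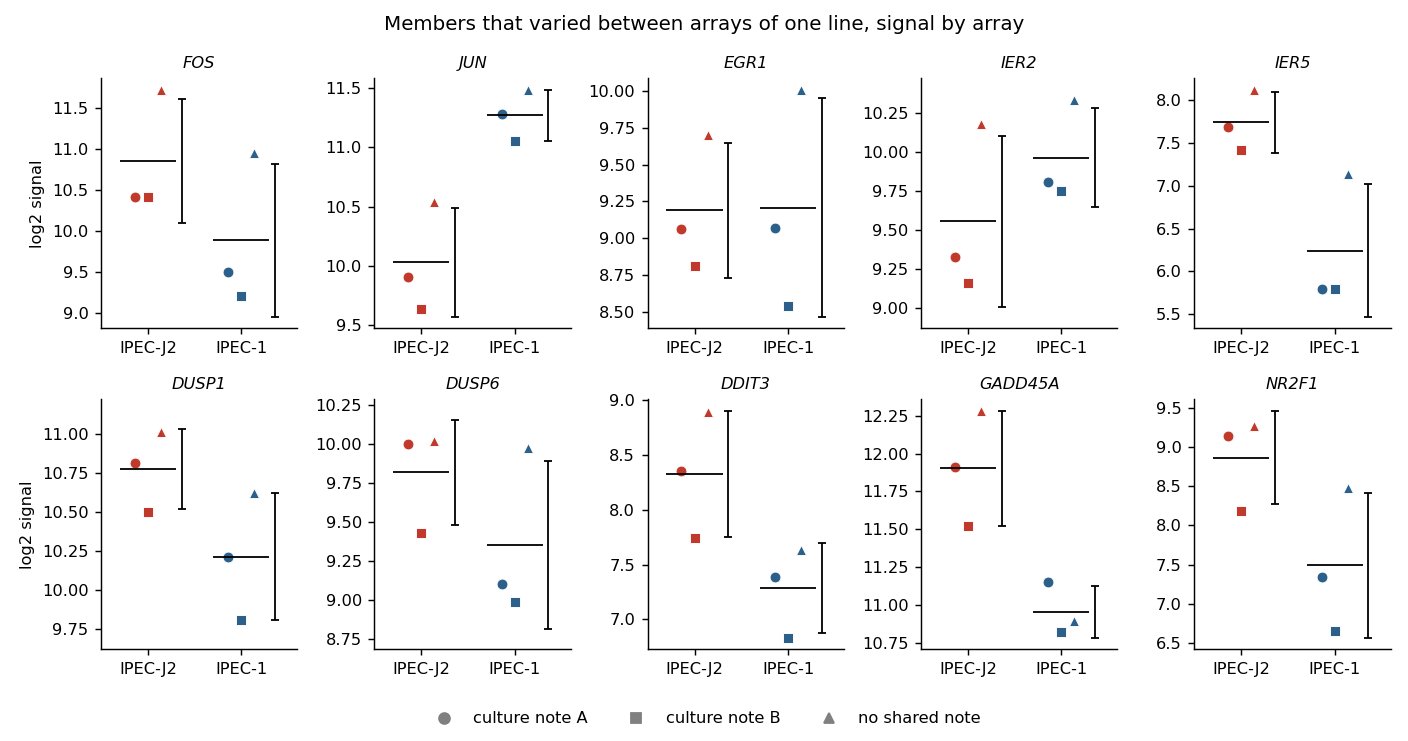
Log2 signal (y axis, separate scale per panel) of 10 members whose arrays spread within a line, chosen after their values were seen, with IPEC-J2 in red and IPEC-1 in blue. Each point is 1 array, its shape gives the culture note, lines are means and bars SDs (n = 3); triangles, the arrays without a shared note, are highest in both lines in every panel except that of GADD45A.

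Lists of partners and targets, written from general knowledge, were read from the same fit. Where unadjusted p-values under 0.05 are counted below, 2215 of all 5513 genes above the floor had one (limma). In the MAP kinase cascade upstream of the immediate early genes, 4 of 11 genes above the floor were higher and 1 was lower, against the background shares of 11.6% and 13.8%. MAP2K2, the ERK-activating kinase MEK2, had 10.16, 10.14 and 10.08 in IPEC-J2, against 8.85, 8.87 and 8.89 in IPEC-1. The gap was far wider than the spread, and MAP2K2 was 2.40-fold higher, or 2.26-fold against the level for faint signals (adjusted p = 8.76e-05 from limma, 0.0109 with the culture note block). MAP2K4, which activates JNK and p38, differed by 0.86 and was higher in both fits. RPS6KA1, a kinase downstream of ERK, was 1.64-fold higher, or 1.44-fold against the level, and MAPK14 (p38 alpha) was 2.12-fold lower. The block gave adjusted p-values of 0.10 for RPS6KA1 and 0.0731 for MAPK14 (limma), so that 2 genes were higher and 1 lower there, the lower one being ARAF, which was not called without the block.

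Other immediate early and growth factor response genes had 3 higher and 1 lower of 13. PTGS2, the inducible prostaglandin synthase, had 8.78, 9.66 and 9.31 in IPEC-J2 and only floor values in IPEC-1, at least 2.64-fold higher (adjusted p = 0.000676 from limma). BTG2, an antiproliferative protein whose IPEC-1 signals lay under the level for faint signals, was 2.36-fold higher against that level. NFKBIA, the inhibitor of NF-kappaB, was 2.50-fold higher, and the survival gene MCL1 was 1.57-fold lower. The 3 higher genes were called again with the culture note block, and MCL1 was not (adjusted p = 0.0581 from limma).

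AP-1 target genes had 3 higher and 2 lower of 13, and the median size of their difference was 1.96 against 0.40 over all genes above the floor. Only 7 of the 13 were above the floor on all arrays, so floor values enter that median. AREG, with a difference of 1.96, had 1 IPEC-1 array at the floor and was not called. MMP7, an epithelial matrix protease, was higher in IPEC-J2, by 6.03-fold (adjusted p = 0.0257 from limma, 0.0901 with the culture note block). PLAU, the urokinase gene, had 11.85, 11.93 and 11.54 in IPEC-J2, against 8.03, 5.05 and 7.43 in IPEC-1, 15.2-fold higher against the level for faint signals, with wide spread in IPEC-1 (adjusted p = 0.0245 from limma, 0.0912 with the culture note block). HBEGF, a ligand of the EGF receptor, had only floor values in IPEC-1 and was at least 1.28-fold higher. SPP1, encoding osteopontin, was 12.4-fold lower against the level for faint signals, and IL6, an inflammatory cytokine that is also a C/EBP target, was 2.02-fold lower on the same footing. In the blocked fit 2 were higher (HBEGF, and MMP13, which was not called without the block) and SPP1 and IL6 were lower again.

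Of 17 NFE2L2 target genes of the antioxidant response, 8 were higher and 0 lower by limma, a share of 47.1%, with 9 of the list under an unadjusted p of 0.05, and 3 were higher with the culture note block. NQO1, a quinone reductase, had 12.70, 12.36 and 12.71 in IPEC-J2, against 10.49, 11.31 and 10.94 in IPEC-1 and was 3.20-fold higher (adjusted p = 0.0163 from limma, 0.0720 with the culture note block). GSTA1, a glutathione transferase, had only floor values in IPEC-1 and was at least 2.24-fold higher, and ME1, the NADPH-forming malic enzyme, was 2.47-fold higher, or 2.20-fold against the level. NFE2L2 itself is not analysed here.

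Unfolded protein response genes had 4 higher and 1 lower of 15. HYOU1, an ER chaperone, was 2.03-fold higher. CANX and DNAJB9, which also assist folding in the ER, were 1.45-fold and 1.40-fold higher against the level for faint signals, and 1.69-fold and 1.64-fold higher as measured. SEC61B, a subunit of the ER channel, was 1.24-fold lower. With the culture note block 0 were higher and 1 was lower by limma, 6 having an unadjusted p under 0.05 without the block. Of 15 ATF4 target genes, 0 were higher and 0 lower by limma, with 2 under an unadjusted p of 0.05 and 0 with the culture note block. Of 5 C/EBP partner and target genes, IL6 alone was called.

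Of 15 PPAR target genes, IPEC-J2 had 5 higher and 1 lower. PLIN2, the lipid droplet coat protein, had 11.08, 10.84 and 10.75 in IPEC-J2 and only floor values in IPEC-1, at least 8.22-fold higher (adjusted p = 2.32e-05 from limma). FABP3, a fatty acid carrier, was 4.97-fold and CPT1A, which admits fatty acids to mitochondria, 3.25-fold higher, and ACSL3, an acyl-CoA synthetase, was 2.15-fold lower. In the blocked fit 3 were higher and 0 lower by limma, with FABP3 (adjusted p = 0.0579) and ACSL3 (0.0589) no longer called.

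Among retinoid genes, 1 of 6 was higher and 2 were lower. RBP4, the retinol carrier, had 11.38, 11.49 and 11.39 in IPEC-J2, against 6.66, 6.81 and 7.16 in IPEC-1, 6.14-fold higher against the level for faint signals. CYP26A1, which degrades retinoic acid, was at the floor throughout IPEC-J2 and had 7.17, 6.98 and 7.23 in IPEC-1, which lies under the level, so no fold is given. ALDH1A1, which forms retinoic acid, was 3.85-fold lower in IPEC-J2 (adjusted p = 0.0188 from limma, 0.0581 with the culture note block). The calls of RBP4 and CYP26A1 held with that block.

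Of 7 vitamin D receptor targets, SPP1 alone was called (lower). The 6 LXR and FXR targets, the 15 glucocorticoid receptor targets and partners, DUSP1 among them, and the 6 coregulators of nuclear receptors above the floor had 0 calls by limma. Unadjusted p-values under 0.05 were found for 1, 3 and 0 of these genes (limma). With the culture note block, HSP90AB1, a partner rather than a target in the glucocorticoid list, was lower (adjusted p = 0.0434 from limma). No other gene of these 3 lists was called there.

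**Figure D4:**
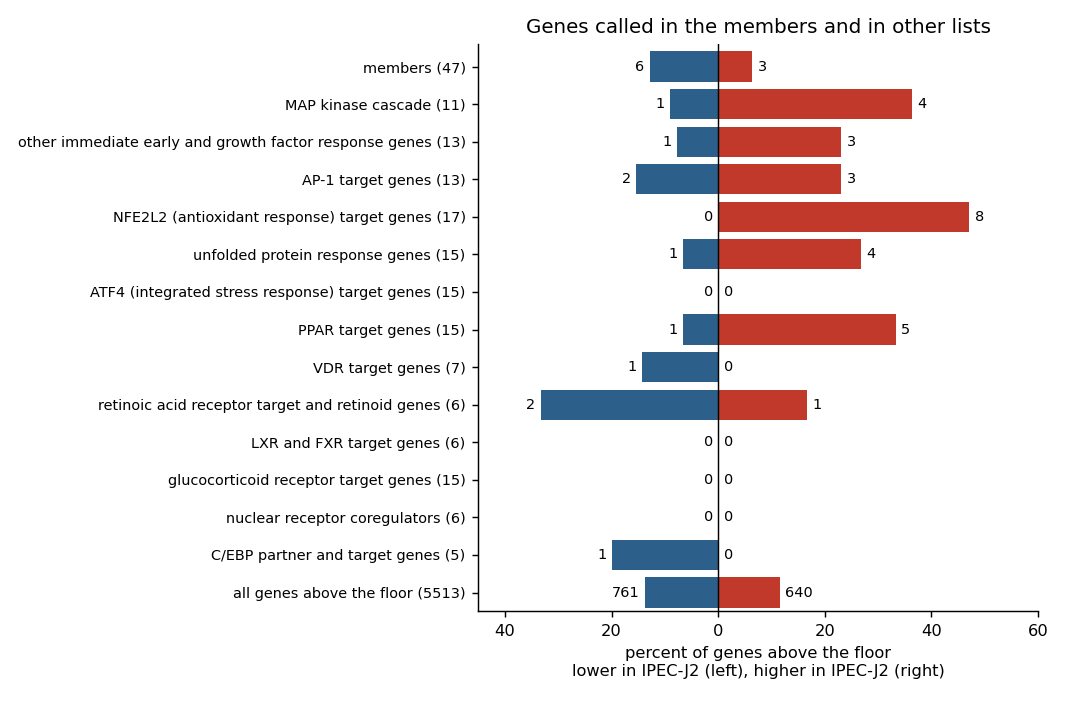
Percent of genes above the floor that were called lower (left, blue) and higher (right, red) in IPEC-J2 (x axis), for the members, each partner or target list and all genes, with the number above the floor in brackets and the number called at each bar. The NFE2L2 targets had 8 higher and 0 lower, and 4 lists had no call in either direction.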

How the data were processed

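RNA of 3 IPEC-J2 and 3 IPEC-1 cultures was measured on 6 Affymetrix Porcine Genome Arrays. The deposited log2 signals, 1 per probe set and array for 24123 probe sets, were made by the authors. The submitters' processing notes name GCOS 1.1.1 and PLIER. The methods name global scaling, background correction, normalization and summary, but the log base and the normalization of the deposited values are not given in the sources used here. No detection calls were used and no further normalization was applied, so a dimmer array lowers its faint signals.

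After 124 control probe sets were left out, 10069 probe sets carried 1 symbol in the platform annotation, 198 several and 13732 none. Their log2 values were averaged per symbol to 6765 genes, as in the methods. Of the 60 members, 59 had an identifier in the RefSeq table, all under the same symbol. Probe sets of several symbols were not used, 4 of them listed for both FOSL2 and FRZB. A probe set listed for DDIT4 under 2 gene identifiers, with the symbol written once for each, was set aside with them (log2 difference 1.35, adjusted p = 0.202 from limma over probe sets), so DDIT4 is no member. No gene sequences were used.

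IPEC-J2 was compared with IPEC-1 in limma 3.58.1 (R 4.3.3; lmFit and eBayes with defaults, no block), and the script was tested on simulated data. Groups came from the sample titles. Every called member is named, with the best known member of each family and up to 3 called genes per list and direction. Other uncalled genes, and those named for their spread within lines, were chosen after their values were seen. The members, lists, roles and tests were chosen with earlier results of these data known (JUN had been seen as lower), and the level for faint signals and the remaining pair of the block after the data were seen.

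Titles number the replicates 1 to 3 in each line, but culture notes pair different numbers. The deviations from the line means had correlations of 0.0605 for note A, 0.173 for note B and 0.0868 for the remaining pair, against -0.0646, -0.106 and 0.0552 for equal numbers. The shared notes in the labels are the reason for the culture note block. Alternatives covered the signal (brightest probe set, an added 16 on the linear scale, quantile or 75th percentile normalization), the genes fitted (without those at the floor, or under a mean of 6), the test (trend and robust moderation, the methods' t-test) and the arrays (replicate block, fixed and random culture note blocks, subsets of culture notes, each array left out).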

Additional observations from a re-analysis of the deposited data

How the results depend on the processing

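Counts are given as members higher or lower in IPEC-J2, against 3 and 6 with limma on all arrays, and as all genes, against 640 and 761. Members higher numbered 5 with quantile normalization, centring on the 75th percentile or without genes of a mean under 6, 6 with the methods' t-test unadjusted, 0 with the replicate block and 1 with notes A and B only. Members lower numbered 0 with the culture note block, 1 with notes A and B only and 2 without note B. With notes A and B only, 0 of the higher and 0 of the lower calls on all arrays were kept, so the members called there were others. Without note B, 2 of the higher and 1 of the lower calls were kept. With an array left out, members higher ranged from 2 to 5 and lower from 3 to 6, and all genes from 355 to 613 higher and from 417 to 572 lower. Over all genes, 272 were higher and 324 lower with the replicate block, 364 and 379 with the culture note block and 226 and 258 with notes A and B only, 397 were lower without note B and 1154 by the t-test unadjusted. Centring on the 75th percentile gave 800 higher and 752 lower genes, so more were higher than lower there. The replicate numbers do not follow the culture notes, and no IPEC-J2 array correlated best with its own number. The replicate block kept CEBPB, CEBPZOS, CREB3L4 and IER3 as lower, and the adjusted p-values from limma were 0.173 for JUN, 0.0771 for NR2F2, 0.0750 for DUSP14, 0.132 for NR1H3 and 0.0619 for IER3IP1. Beyond the blocks and subsets of arrays, IER3 was lost with centring (0.0587), JUN (0.0557) and NR1H3 (0.0550) with the methods' t-test adjusted, and NR1H3 with trend and robust moderation (0.0559).

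No called member changed direction under any alternative run. Some uncalled members did, with differences of 0.11 for ATF3 and -0.13 for PPARG without note B, and 0.47 for ATF4, -0.02 for CEBPG and -0.03 for GADD45B with notes A and B only. CREBZF stood at -0.10 with the brightest probe set, -0.01 with a random block, -0.08 with notes A and B only, and -0.12 and -0.10 in single probe sets. EGR1 stood at 0.01 with quantile normalization, 0.04 with centring, 0.02 with a random block, 0.13 with notes A and B only and 0.08 in 1 probe set. FOSL1 was at 0.01 with quantile normalization and 0.04 with centring, and FOSL2 at 0.07, 0.03 and, without note B, 0.04. With an array left out, the difference ranged from -0.57 to 0.01 for ATF3, -0.80 to 0.26 for ATF4, -0.14 to 0.38 for CEBPG, -0.13 to 0.20 for CREBZF, -0.23 to 0.04 for DUSP11, -0.35 to 0.39 for EGR1, -0.10 to 0.05 for FOSL1, -0.17 to 0.12 for FOSL2 and -0.19 to 0.26 for PPARG. Fewer arrays and fewer residual degrees of freedom come with the blocks and subsets, and other causes were not tested. Faint probe sets near the floor limit what these arrays can show of RXRA, RARA, RARB and NR4A receptors.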
